A study of Rattus norvegicus with 6 samples.

Results

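The genes described here are the YAP/TEAD factors and a set of their known target genes, followed in rat kidney epithelial cells exposed to streptozotocin. They are 10 genes fixed by name, namely Yap1, Wwtr1, Tead1, Ccn1, Ccn2, Ankrd1, Amotl2, Ajuba, Lats2 and Axl, and each was found as 1 row among the 18930 rows of the deposited table of raw counts. RNA was sequenced from 3 samples of NRK-52E cells, an established wild-type epithelial line of the rat kidney, given vehicle (Control), and from 3 samples treated with 10 mM of streptozotocin (STZ), a glucose-linked alkylating drug that damages DNA, for 24 h (STZ). The sources used here do not say whether the replicates were separate cultures, so p-values measure the spread between these samples, which may be technical. Of the 10 genes, 10 passed the filter on low counts, but Axl passed it through the STZ samples alone and is therefore kept out of the median given below.

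Yap1 and Wwtr1 (the gene of TAZ) encode paired co-activators that do not bind DNA themselves. In the nucleus they dock on TEAD proteins such as Tead1, which bind DNA and switch on growth, matrix and cytoskeletal genes. The Hippo kinases, with the LATS kinases as the last step, phosphorylate YAP and TAZ and keep them in the cytoplasm, so nuclear YAP reads out cell density, stretch and adhesion, and in the kidney tubule it is known for its part in repair and fibrosis. Much of this control acts on the proteins, and RNA of the factors is one layer of it. Ccn1, Ccn2 and Ankrd1 are the targets most often used as a readout, whereas Amotl2, Ajuba and Lats2 are targets that in turn act on the pathway.

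TEAD proteins recognise the letters GGAATG, or CATTCC when read on the other strand. RefSeq promoter windows on GRCr8, from 250 bases before the gene start to 50 after it, were matched for 7 of the 10 genes; Tead1, Ankrd1 and Lats2 were not matched. The motif, searched on both strands, lay in 5 of these 7 windows, and in 14.2% of all 33469 windows of the same length. Among the windows of all genes tested the share was 10.8%. Most of the matched genes were listed because they are known YAP and TEAD targets, so their share is a description only. The shares of the other gene lists are given below. The upstream stretches of the CCN pair and of Ajuba are shown because they place the motif before genes that passed the test between groups (Ccn2 and Ajuba) and before 1 that did not (Ccn1); each is printed 5′ to 3′ on the strand of the gene, which is the minus strand for all of them, with the motif in capitals. They lie at chr1:22624615-22624864 (Ccn2), chr2:237225690-237225939 (Ccn1) and chr15:32000043-32000292 (Ajuba).
Ccn2: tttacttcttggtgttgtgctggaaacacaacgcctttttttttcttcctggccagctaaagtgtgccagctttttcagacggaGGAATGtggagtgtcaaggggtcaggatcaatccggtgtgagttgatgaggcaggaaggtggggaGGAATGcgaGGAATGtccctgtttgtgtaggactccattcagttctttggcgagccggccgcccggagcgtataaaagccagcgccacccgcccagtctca
Ccn1: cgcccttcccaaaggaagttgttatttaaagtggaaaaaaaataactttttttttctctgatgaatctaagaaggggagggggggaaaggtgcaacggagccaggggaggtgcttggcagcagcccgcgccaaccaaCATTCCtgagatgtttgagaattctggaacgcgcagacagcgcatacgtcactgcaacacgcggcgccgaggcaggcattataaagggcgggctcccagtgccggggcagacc
Ajuba: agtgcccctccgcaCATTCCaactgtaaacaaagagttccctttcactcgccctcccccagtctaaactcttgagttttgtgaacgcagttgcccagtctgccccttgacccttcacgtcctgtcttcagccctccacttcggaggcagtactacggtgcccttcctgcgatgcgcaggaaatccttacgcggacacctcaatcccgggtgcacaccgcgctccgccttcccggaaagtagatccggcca

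Ccn2 held 3 copies, which begin 166, 101 and 92 bases before the gene start, and windows with at least 3 copies made up 0.0956% of all windows. Ccn1 held 1 copy, beginning 113 bases before the start, and Ajuba 1 copy, beginning 236 bases before it. The single copies of Amotl2 (plus strand, chr8:112182538-112182567) and Yap1 (minus strand, chr8:13451536-13451565) began 76 and 116 bases before the start used for the window, and 30 bases around each are shown for comparison with the stretches above.
Amotl2: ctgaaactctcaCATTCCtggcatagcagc
Yap1: agggagtctgcaGGAATGtaacgacgcgca

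No match of these letters was found in the windows of Wwtr1 and Axl. The AP-1 motif TGANTCA often accompanies TEAD sites in enhancers and cannot cover a whole TEAD motif. It was found in 0 of the 7 windows, in 7.33% of all windows and in 4.67% of those of all genes tested. At such shares, 7 windows are too few for 0 to be informative. These matches describe the letters of the windows only, and binding was not measured.

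**Figure D1:**
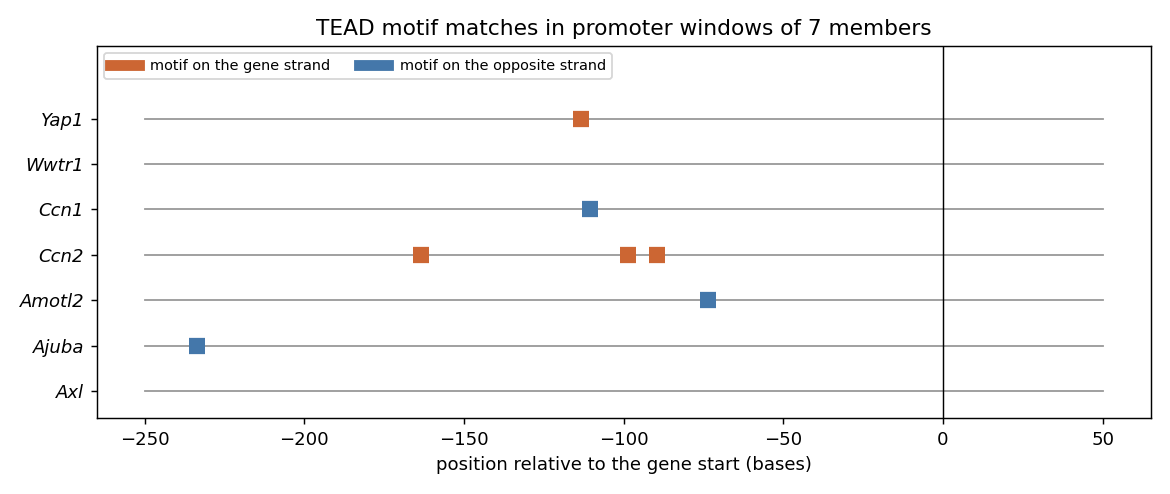
Position of each match of the TEAD motif, in bases relative to the gene start, in the windows of the 7 matched genes; orange marks the motif on the strand of the gene and blue the opposite strand. Ccn2 carries 3 copies, Ccn1, Ajuba, Amotl2 and Yap1 carry 1 each, and the windows of Wwtr1 and Axl carry none.

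STZ did not move the 10 genes in 1 direction. With a Benjamini-Hochberg adjusted p below 0.05 in the edgeR quasi-likelihood fit of all 11870 genes tested, 5 rose (Ankrd1, Axl, Lats2, Ccn2 and Ajuba), 1 fell (Wwtr1) and 4 did not pass (Yap1, Tead1, Ccn1 and Amotl2). Of all genes tested, 50.9% passed this threshold, 25.9% as higher and 25.1% as lower, whereas Axl had to be higher in STZ to be tested at all. Of the other 9 genes, 4 rose and 1 fell, so 5 of 9 passed, a share near that background. The median log2 fold change of these 9 genes was -0.03, beside -0.01 for all genes tested. In this fit, Axl and 1 of the other 9 genes, Ankrd1, passed both thresholds of the study as higher. These are the same adjusted p and an absolute log2 fold change over 1, passed by 3.37% of all genes (2.26% as higher and 1.11% as lower). The study, which does not state its filter or edgeR test, reported fewer such genes. The balance of small changes depended on library scaling, because Yap1 and Amotl2 also counted as lower (3 lower genes in all) when only the library size was used, and Ajuba then no longer passed. In bulk RNA such as this, fewer cells of a type and less RNA per cell cannot be told apart. The study also counted fewer viable NRK-52E cells after 24 h at rising doses of STZ. Cell density at harvest may therefore have differed between the groups, and its part in these values was not tested.

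**Figure D2:**
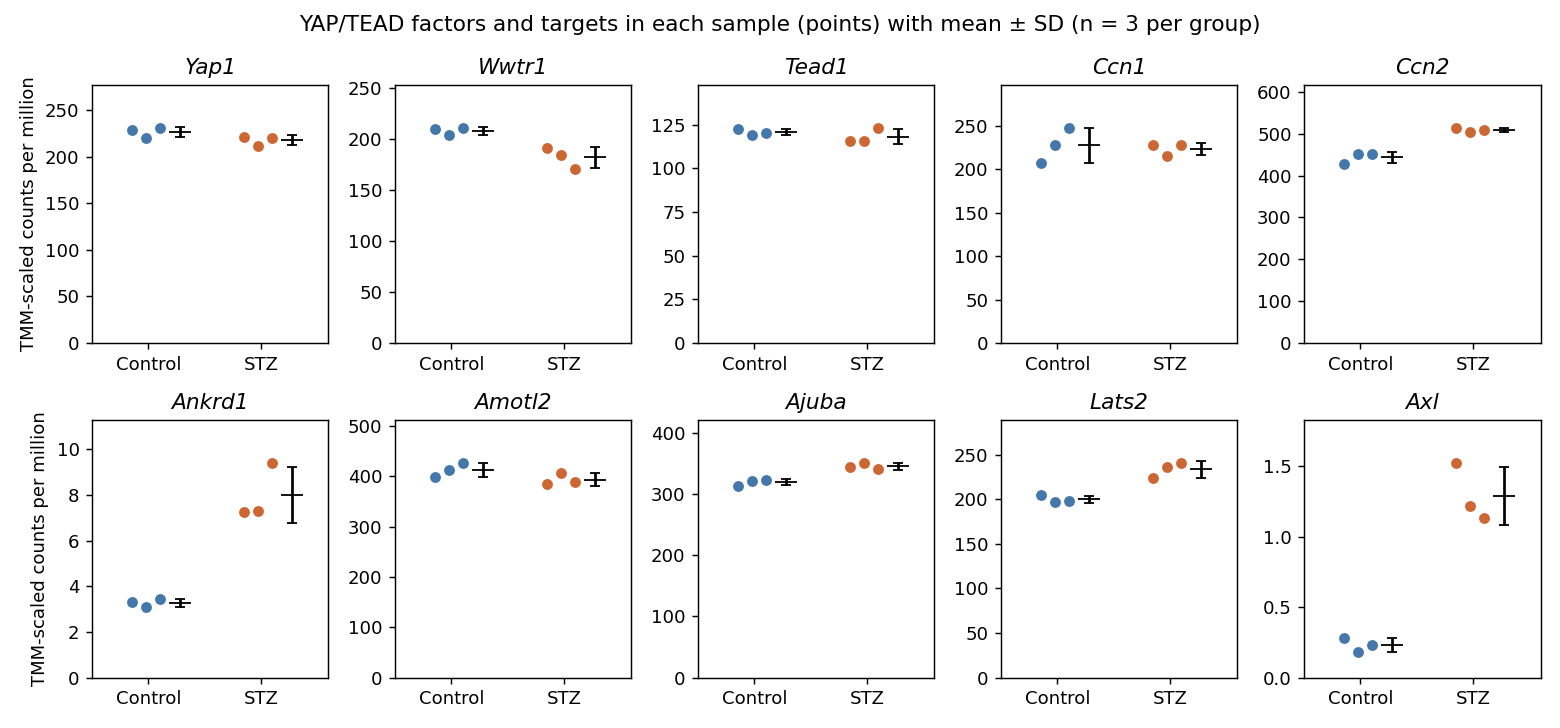
Level in CPM, scaled by the TMM method of edgeR, of each of the 10 genes in every sample (points; blue, Control; orange, STZ), with the mean and SD of 3 samples per group; each vertical axis starts at 0. The groups stand apart for Ankrd1, Axl, Lats2, Ccn2 and Ajuba (STZ higher) and for Wwtr1 (STZ lower), and most differences are small beside the level itself.

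Of the 3 factors, Wwtr1 passed the test and Yap1 and Tead1 did not. Yap1 had 229, 221 and 231 CPM (counts per 1000000 counts of the library, scaled by TMM) in Control, in the order of the replicate numbers used throughout, and 221, 211 and 220 in STZ. The groups overlapped, and the log2 fold change was -0.06 (standard error, SE, 0.04, 95% interval -0.14 to 0.02, edgeR adjusted p = 0.22). Wwtr1 had 210, 204 and 211 CPM in Control and 191, 185 and 171 in STZ. All STZ samples lay under all Control samples, STZ replicate 3 being the lowest, and Wwtr1 fell by 0.19 on the log2 scale (SE 0.04, edgeR adjusted p = 1.6e-04). Tead1, the DNA-binding partner, had 123, 119 and 120 CPM in Control and 116, 116 and 123 in STZ. These values interleaved, with a log2 fold change of -0.03 (SE 0.04, 95% interval -0.12 to 0.06, edgeR adjusted p = 0.61). The 95% interval of Wwtr1 was -0.28 to -0.11 and overlaps those of Yap1 and Tead1, and of these differences between genes that of Yap1 and Wwtr1 is given below as a ratio. In the RefSeq annotation the span of Tead1 overlaps 2 unnamed genes, and since the sources do not say whether counting used strand, their reads may not be fully separated.

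Of the secreted CCN proteins, matricellular ligands that bind integrins and are the textbook YAP readout, Ccn2 passed the test and Ccn1 did not. Ccn2 (also called CTGF) had 427, 452 and 450 CPM in Control and 514, 505 and 508 in STZ. The groups did not overlap. Such separation was seen in 56.3% of all genes tested, 28.6% as higher and 27.7% as lower, and among the 10 genes here in 5 as higher (4 of 9 without Axl) and 1 as lower. Ccn2 rose by 0.20 on the log2 scale (SE 0.04, edgeR adjusted p = 1.2e-05), a 1.15-fold difference. Ccn1 (also called CYR61) had 207, 228 and 248 CPM in Control and 228, 216 and 228 in STZ. Its Control samples were the more scattered and enclosed the STZ samples, with an SD of 20.1 CPM against 7.05 (n = 3 each). The log2 fold change of Ccn1 was -0.03 (SE 0.05, 95% interval -0.12 to 0.07, edgeR adjusted p = 0.65), and its sign turned when Control replicate 3 (0.04) or STZ replicate 2 was left out. The TEAD motif copies printed above stand before genes that rose (Ccn2 and Ajuba) and before genes that did not pass (Ccn1, Amotl2 and Yap1). The windows of Axl, which rose, and Wwtr1, which fell, held no copy. Ankrd1, Lats2 and Tead1 had no window, so motif and change were not compared.

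Ankrd1, which encodes a nuclear and sarcomeric ankyrin repeat protein induced by YAP, had the larger change of the intracellular targets but a low level. Its raw counts were 35, 34 and 44 in Control and 100, 84 and 141 in STZ, or 3.30, 3.09 and 3.43 CPM against 7.27, 7.30 and 9.41. Every STZ sample had more than 2 times the CPM of any Control sample, and STZ replicate 3 was the highest. The log2 fold change was 1.29 (SE 0.17, edgeR adjusted p = 2.1e-08), a 2.45-fold difference, and lay between 1.15 and 1.36 over 15 alternative settings.

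Axl, a receptor tyrosine kinase of the TAM family, stood at the edge of detection. It had 3, 2 and 3 reads in Control and 21, 14 and 17 in STZ, or 0.283, 0.182 and 0.234 CPM against 1.53, 1.22 and 1.13. The sums were 8 and 52 reads, and after division by the scaled library sizes they differed 5.56-fold, with a 95% exact interval of 2.62 to 13.6 that covers counting error only. The fitted log2 fold change was 2.43 (SE 0.47, edgeR adjusted p = 2.9e-05). Since Axl reached the filter's minimum of 0.820 CPM through the STZ samples alone, it had to differ to be tested, and it left the test when 10 counts were required in every sample and when the libraries were thinned to the smallest.

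Lats2, Ajuba and Amotl2 are targets that act back on the pathway. Lats2, a kinase that inhibits YAP and TAZ and is also known to bind Mdm2 and favour p53, had 204, 197 and 198 CPM in Control and 223, 236 and 241 in STZ. The groups were apart and Lats2 rose by 0.22 on the log2 scale (SE 0.04, edgeR adjusted p = 1.1e-05), a 1.17-fold difference. Ajuba, a LIM protein that restrains the LATS kinases, had 314, 321 and 323 CPM in Control and 344, 351 and 341 in STZ. Its groups were also apart, but the log2 fold change was only 0.11 (SE 0.04, edgeR adjusted p = 0.0093), and with library size as the only scaling it was 0.08 (edgeR adjusted p = 0.064). Amotl2, an angiomotin that tethers YAP at junctions, had 399, 412 and 427 CPM in Control and 384, 407 and 389 in STZ. The groups overlapped, with a log2 fold change of -0.07 (SE 0.04, 95% interval -0.14 to 0.01, edgeR adjusted p = 0.12), and Amotl2 passed as lower with library size only (-0.10) and with the upper quartile (-0.09).

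**Figure D3:**
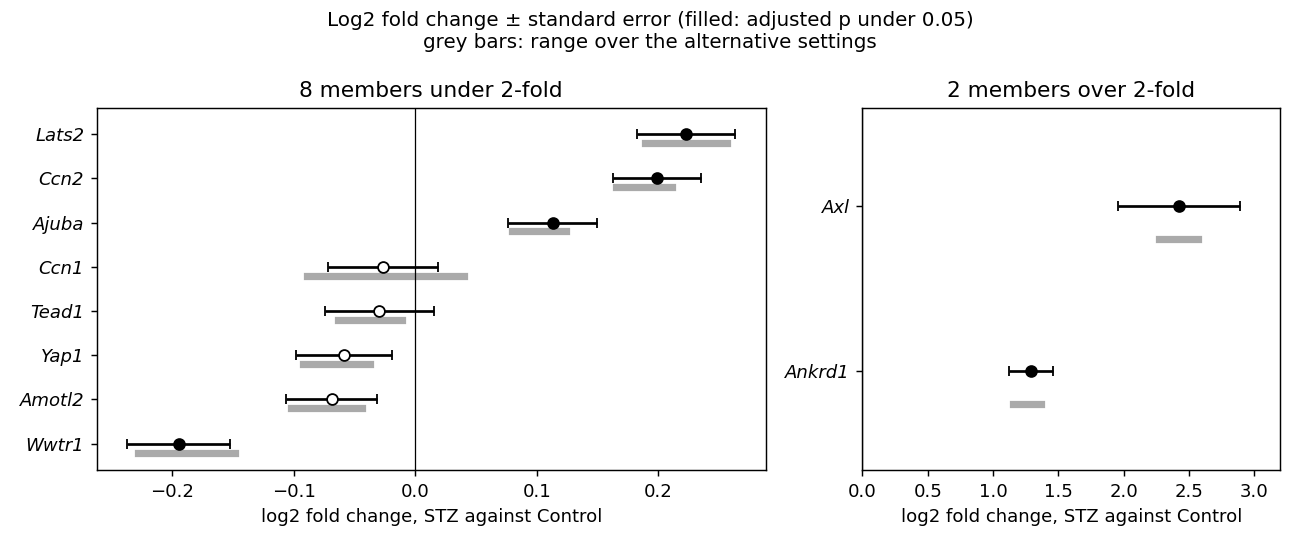
Log2 fold change of STZ against Control with its standard error (filled points, adjusted p under 0.05) for the 8 genes under 2-fold (left) and the 2 over it (right, another scale), with the range over the alternative settings as a grey bar. The bars of Lats2, Ccn2, Ajuba, Ankrd1 and Axl lie right of 0, those of Wwtr1, Yap1, Tead1 and Amotl2 left of it, and the bar of Ccn1 crosses 0.

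Paralogs were also set against each other within each sample, where library scaling cancels. The 3 pairs were chosen after the values of single genes had been seen. The log2 ratio of the raw counts of Ccn2 to Ccn1 was 1.04, 0.99 and 0.86 in Control and 1.18, 1.23 and 1.16 in STZ, a difference of 0.22 (standard error 0.06). The log2 ratio of Yap1 to Wwtr1 was 0.12, 0.11 and 0.13 in Control and 0.21, 0.20 and 0.36 in STZ. That difference was 0.14 (standard error 0.05), of which 0.08 remained without STZ replicate 3. The largest of the 3 differences was that of the LATS kinases, where the log2 ratio of Lats2 to Lats1 was 1.46, 1.48 and 1.24 in Control and 2.05, 2.06 and 2.06 in STZ, or 0.66 higher (standard error 0.08). In all 3 pairs the groups did not overlap, which for Lats2 and Lats1 followed from their single levels, apart in opposite directions. Single genes were apart in 56.3% of all genes tested, and the share over gene pairs was not computed. The two-sided exact permutation p was 0.1, the smallest that 3 samples against 3 allow. It was also 0.1 after Benjamini-Hochberg adjustment over the 3 pairs. Since the pairs were chosen from these same values, that p is a description only.

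**Figure D4:**
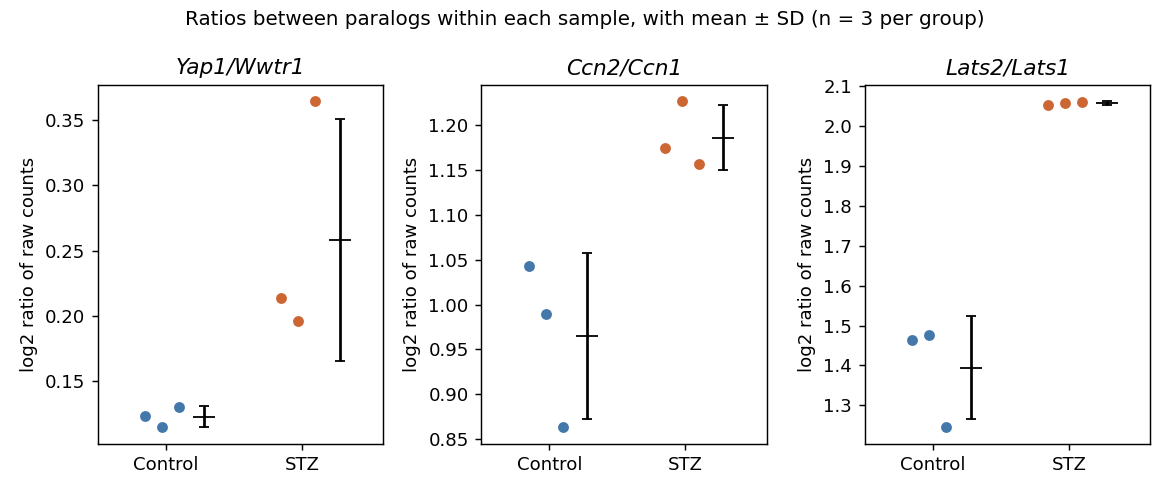
Log2 ratio of raw counts between paralogs in each sample (points), with the mean and SD of 3 samples per group; the vertical axes do not start at 0. STZ samples lie above Control samples in each of the 3 pairs, with Lats2/Lats1 at 1.24 to 1.48 in Control and 2.05 to 2.06 in STZ.

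The paralogs of the 10 genes moved both ways. Of 15 listed, 14 were in the table and 12 were tested, of which 5 rose and 4 fell at the same adjusted p (25.9% and 25.1% of all genes tested), with a median log2 fold change of 0.01 and none past the threshold of 1. Ccn4 (also called WISP1, a CCN family member known as a Wnt target) rose from 135, 137 and 144 CPM in Control to 242, 236 and 245 in STZ, a log2 fold change of 0.80 (SE 0.04, edgeR adjusted p = 3.6e-20). Ccn5, which lacks the C-terminal domain of its relatives, rose by 0.42 on that scale, so the CCN genes tested ranged from no detectable change (Ccn1) to 1.74-fold (Ccn4). Among the TEAD genes, Tead3 rose (log2 fold change 0.38), Tead2 fell by 0.27, and Tead4 was at -0.04 and did not pass, as Tead1 did not. Lats1 had 74.1, 70.9 and 83.7 CPM in Control and 53.9, 56.6 and 57.7 in STZ and fell by 0.45 on the log2 scale (SE 0.06, edgeR adjusted p = 1.2e-08), opposite to Lats2. The angiomotins likewise differed in sign, with Amot lower (-0.31) and Amotl1 higher (0.21), while Amotl2 did not pass.

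Among the TAM genes beside Axl, the ligand genes Gas6 and Pros1 and the receptor gene Mertk rose, and Tyro3 did not pass. Of all genes tested, 25.9% were called higher. Mertk and Tyro3 are already counted among the paralogs above, and Axl itself was tested only through its STZ reads. Gas6, a vitamin K-dependent ligand of the TAM receptors, had 145, 134 and 132 CPM in Control and 227, 232 and 212 in STZ. Its log2 fold change was 0.71 (SE 0.04, edgeR adjusted p = 2e-17). Pros1, which encodes protein S, the other TAM ligand, had 46.3, 43.8 and 48.4 CPM in Control and 67.7, 63.7 and 64.5 in STZ, with a log2 fold change of 0.50 (SE 0.06, edgeR adjusted p = 1e-09). Mertk rose by 0.52 on the log2 scale from 11.7 ± 0.657 to 16.9 ± 1.13 CPM (SD, n = 3 each), whereas Tyro3 stayed between 42.7 and 49.9 CPM over all 6 samples and did not pass (log2 fold change -0.01).

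Of 23 other Hippo pathway genes, 22 were tested, of which 11 rose and 4 fell, beside 25.9% and 25.1% of all genes tested, with a median log2 fold change of 0.14 and none past the threshold of 1; without Control replicate 2, 7 rose. Vgll3, a vestigial-like cofactor that binds TEAD proteins in place of YAP, had 48.2, 47.3 and 48.5 CPM in Control and 85.4, 85.6 and 81.5 in STZ, a log2 fold change of 0.81 (SE 0.05, edgeR adjusted p = 9.4e-17). Fat1, an atypical cadherin upstream of the kinases, had 595, 568 and 611 CPM in Control and 1003, 977 and 1014 in STZ, a log2 fold change of 0.75 (SE 0.04, edgeR adjusted p = 1.9e-21). Both were higher in every STZ sample than in any Control sample. Smaller rises were those of Rassf1 (0.35), Frmd6 (0.31) and Taok3 (0.31), which encode a scaffold, a FERM-domain activator and a kinase of the upper pathway, the last of which no longer passed without Control replicate 2 (0.22). Mob1a, a co-activator of the LATS kinases, and Wwc1, the scaffold KIBRA, each fell by 0.31 on the log2 scale. The kinase genes Stk3 and Stk4, their partner Sav1 and the tumour suppressor Nf2 had log2 fold changes of -0.05, 0.14, 0.04 and 0.07, of which only that of Stk4 passed (edgeR adjusted p = 0.025), and no longer with library size only (0.11), with the upper quartile (0.12), with DESeq2 or without any 1 of Control replicates 2 and 3 and STZ replicate 3.

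A further 15 genes often used as YAP and TAZ targets were likewise mixed, with 14 tested, 7 higher and 2 lower (25.9% and 25.1% of all genes tested), a median log2 fold change of 0.11 and none past the threshold of 1. Nuak2, an AMPK-related kinase, rose from 31.3, 25.5 and 30.2 CPM in Control to 43.7, 46.7 and 43.8 in STZ (log2 fold change 0.62, SE 0.07, edgeR adjusted p = 7.4e-10). Gadd45a, which is also a well-known p53 target, rose by 0.34, and Dock5, an exchange factor for Rac, by 0.30 on the log2 scale. The 2 that fell were Myof (-0.18), which encodes myoferlin, and Ccdc80 (-0.14), a matrix gene; they are named because they were only 2, after their values were seen. In the promoter windows, the TEAD motif was found in 1 of the 10 windows matched for this list, that of Nuak2, beginning 228 bases before its start. It was found in 9 of 24 windows matched for the Hippo list and in 1 of 16 for the paralogs, where a gene can have more than 1 window, and in 10.8% of the windows of all genes tested.

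**Figure D5:**
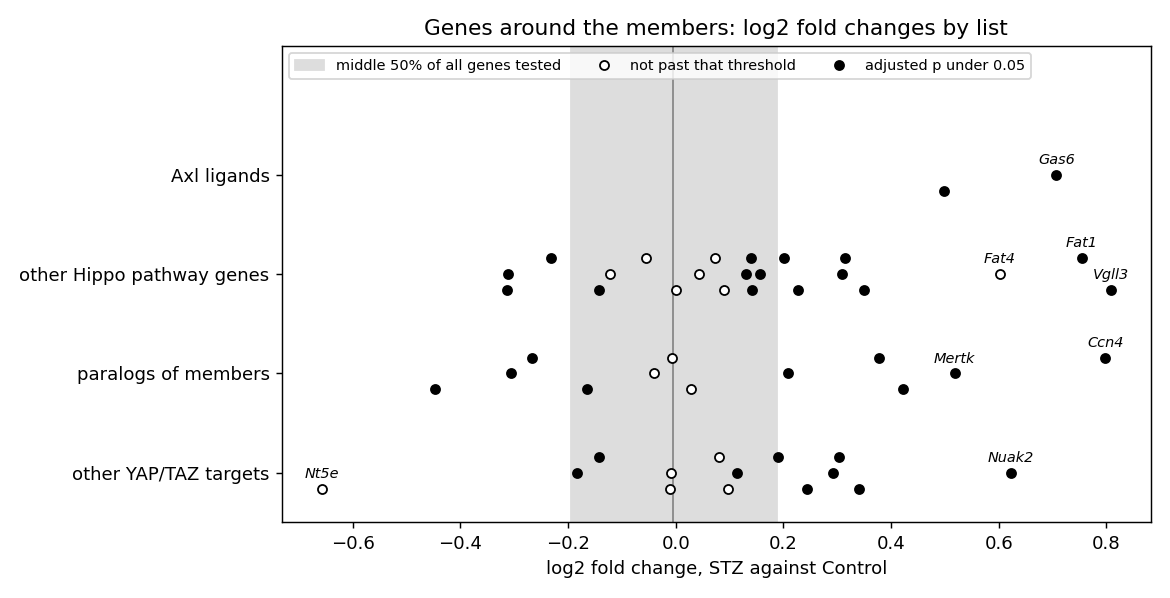
Log2 fold change of every tested gene of the 4 lists around the 10 genes (filled points, adjusted p under 0.05), over the middle 50% of all 11870 genes tested (grey, -0.19 to 0.19) and their median (line); names mark genes beyond 0.5 in size. Vgll3, Ccn4, Fat1, Gas6 and Nuak2 lie furthest right, and each of the 3 larger lists has called genes on both sides of 0. The row labelled Axl ligands holds the TAM ligand genes Gas6 and Pros1.

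The genes whose log2 CPM followed a member most closely over the 6 samples were sought among 9725 named genes with a mean of at least 50 normalized counts; the 6 points share 2 conditions and the library scaling, so the coefficients are descriptions. For Ccn2 they were Birc2, Grm4 and Atp1b3 (Pearson r = 0.997, 0.997 and 0.996), for Ankrd1 Sgms2, Ktn1 and Zhx1 (r = 0.998, 0.997 and 0.996), and for Ccn1, whose pattern does not separate the groups, Sh3bgrl, Hemk1 and Chmp6 (r = 0.992, 0.975 and 0.974). None of the 9 is in the lists above.

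Total counts were between 10430924 and 15191349 per sample, and counting error weighs most on Ankrd1 and Axl, which had the fewest reads of the 10 genes. The label of a kidney epithelial cell was checked against 10 markers, of which 7 were in the table and 2 passed the filter. Krt8 was high, at 1102 to 1178 CPM in Control and 1597 to 1613 in STZ. Cdh1 was low, at 16 to 35 reads, while Krt18, Pax8, Cdh6 and Cdh16 had at most 4 reads in any sample. Epcam, Krt19 and Pax2 had no row of that name, and 2871 rows carried only an Ensembl identifier. Whether the few reads of Krt18, beside those of Krt8, reflect expression or read assignment was not tested. Of 5 proximal tubule markers, 4 were in the table and none passed the filter, so the defining markers of the mature tubule were at or near 0. Summed over the 5 of 6 fibroblast markers in the table, the level was 47.2 to 52.4 CPM in Control and 36.8 to 43.7 in STZ, mostly from Col1a1 and Pdgfrb. The sums were 0.455 to 0.754 against 0.800 to 1.13 CPM for 4 endothelial markers and 1.09 to 2.07 against 2.26 to 2.54 CPM for 4 leukocyte markers, with Ptprc and Pecam1 at 2 reads or fewer in every sample. Kdr had 0, 2 and 1 reads in Control and 6, 9 and 7 in STZ, and Cd68 had 20, 7 and 23 against 29, 21 and 27. The part of these marker levels in the changes of the 10 genes was not tested.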

How the data were processed

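Total RNA of NRK-52E cells was made into stranded mRNA libraries. The deposited values are raw counts per gene, 1 column per sample, which the authors made with featureCounts from single-hit STAR 2.7.10a alignments to the Rnor6 build. The strand setting and annotation release are not given in the sources used here. All 6 columns were assigned by their labels.

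In edgeR 4.0.16 (R 4.3.3), counts were filtered by filterByExpr at its defaults, scaled by TMM, expressed as CPM and tested by quasi-likelihood, and p-values were adjusted by Benjamini-Hochberg over 11870 genes. The SE is the log2 fold change over the square root of F. The tests were also run on simulated counts, with a common dispersion for all genes and far fewer changed genes than were called here. That run checks the code only. Gene lists and members were chosen with earlier results of these data known. Besides the members and both TAM ligands, the genes named are list genes chosen by a rule, relatives of the members and the closest patterns. The rule was an adjusted p under 0.05, an absolute log2 fold change over 0.3 and on average 50 or more normalized counts. The TEAD, angiomotin, TAM and Hippo kinase relatives were named for comparison after their values were seen. Promoter windows are RefSeq's on GRCr8. Alternatives were 2 filters, 3 scalings, DESeq2 1.42.0, limma-voom (limma 3.58.1), thinning, the replicate block and leaving out each sample. Same-group libraries differed by more than sampling noise (chi-square per degree of freedom at least 1.85). Values of some single genes are left out of this text.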

Additional observations from a re-analysis of the deposited data

How the results depend on the processing

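Over 148 refits of the 10 genes under the alternatives, 142 left sign and call as reported, as did 409 of 420 refits of 28 other named genes. Of the latter, Taok3 (0.22 without Control replicate 2) and Stk4 lost their calls and Tyro3 (-0.069 to 0.043) and Tead4 (-0.082 to 0.030) changed sign with 1 sample left out, neither of them called. The exceptions among the 10 were Yap1 (-0.09) and Amotl2 (-0.10) called lower and Ajuba (0.08) not called with library size only, Amotl2 (-0.09) called lower with the upper quartile, and the sign of Ccn1, which was -0.089 to 0.040 with 1 sample left out. Members called lower, 1 with the settings reported, were 3 with library size only and 2 with the upper quartile, which moved the median of all genes from -0.01 to -0.04 and -0.02. Members past both thresholds were 2, and 1 with at least 10 counts in every sample or after thinning, where Axl was not tested; all genes past both thresholds were 400, and 249 with at least 10 counts in every sample, which tests fewer genes. With 1 sample left out, the median of the 9 genes without Axl was -0.039 to 0.040, the Hippo genes called higher were 7 to 11, and the cause was not tested. Control and STZ samples share replicate numbers, but the deviations of samples with the same number correlated at only 0.05, -0.04 and 0.08 over 11870 genes and so are not taken as pairs. Under the replicate block 5 members were higher and 1 lower, as without it. The 3 ratios, whose alternatives were added after seeing the data, kept their sign when each sample was left out and after thinning. Depth limits Axl and Ankrd1 in particular.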
